A study of Homo sapiens with 6 samples.

Results

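Chromosome 4 is the most AT-rich of the human chromosomes listed here and one of the poorest in genes, apart from a short gene-rich stretch at the end of its short arm. The 40 kb bins of this chromosome outside 92 to 102 Mb (hg19), 4529 of the 75918 bins of chromosomes 1 to 22 and X, were taken from Hi-C maps of LNCaP cells, together with the topologically associating domains (TADs) of chromosome 4 whose midpoint lay outside that interval: 163 of 2864 control TADs and 105 of 2389 CTCF siRNA TADs. The chromosome was chosen with its fall in TAD number already known, so that fall is given as a description. The shares of lost boundaries, of merged TADs and of long TADs, and the runs, come from the same TAD lists and are descriptions too. LNCaP is an established human prostate cancer line. All cells were transfected with 20 nM of a pool of siRNAs, were split and transfected again, and were harvested after 144 h. The controls received a non-targeting pool (2 libraries) and the depleted cells a pool against CTCF (4 libraries), with no other agent in either group. The labels do not say whether these 4 were separate cultures or include repeat runs. The libraries of each condition had been pooled into a single contact map before deposit. No difference between the conditions therefore has a replicate check, and the intervals given here cover only counting error or, for medians, the spread between positions. How far CTCF itself fell was not analysed here.

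CTCF is a zinc-finger protein that binds DNA at a directional motif and halts the loops that cohesin extrudes, and pairs of its sites sit at the edges of many TADs. A TAD is a stretch of chromosome whose sequences contact one another more often than they contact the neighbouring stretches. Its edge, the boundary, is seen in a Hi-C map as a position across which contacts are depleted. Human chromosomes are also divided into gene-rich, GC-rich segments and gene-poor, AT-rich segments that each prefer contacts with their own kind, the A and B compartments.

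The members held 731 starts of protein-coding genes in 178 Mb of known sequence, or 4.11 per Mb, against 7.40 per Mb on the other autosomes. Their GC content was 38.3%, against 41.2% on the other autosomes. Of chromosomes 1 to 22 and X, chromosome 4 ranked 1 from the bottom in GC content and 3 from the bottom in gene starts per Mb. The first 9 Mb stood apart from the rest of the members. This tip held 98 gene starts, 11 per Mb, with a GC content of 49.8%, whereas the rest held 3.75 per Mb with 37.7%. The core of the CTCF motif, a degenerate sequence of 12 bases searched on both strands, matched the reference 7.96 times per Mb in the tip and 2.61 times per Mb in the rest.

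Contacts were not available everywhere. Neither map lists a contact on chromosome 4 before 9.4 Mb, so contacts in the tip were not analysed here, and only its TADs and boundaries are described. Of the 4529 member bins, 4092 had contacts in both maps and 4077 passed the depth limit described below. Between these usable bins lay 775637 control and 2261016 CTCF siRNA contacts within the chromosome, with a median of 338 and 879 contacts per bin. The 2 maps differed in how depth followed sequence. With the usable bins ordered by GC content and cut into 10 groups of like size, the mean number of contacts per bin in the control map was 349 in the most AT-rich group and 348 in the most GC-rich group. In the CTCF siRNA map the same groups had 690 and 1660 contacts per bin. The CTCF siRNA map was thus 1.98 times as deep as the control map in AT-rich bins and 4.77 times as deep in GC-rich bins. The part of this difference in the results below was not tested. For insulation, minima and contacts between merged TADs, values are also given after the CTCF siRNA contacts had been drawn down at random within these 10 groups, so that depth followed GC content as in the control map. This is called thinning by GC content, and it was added after the other values had been seen.

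**Figure D1:**
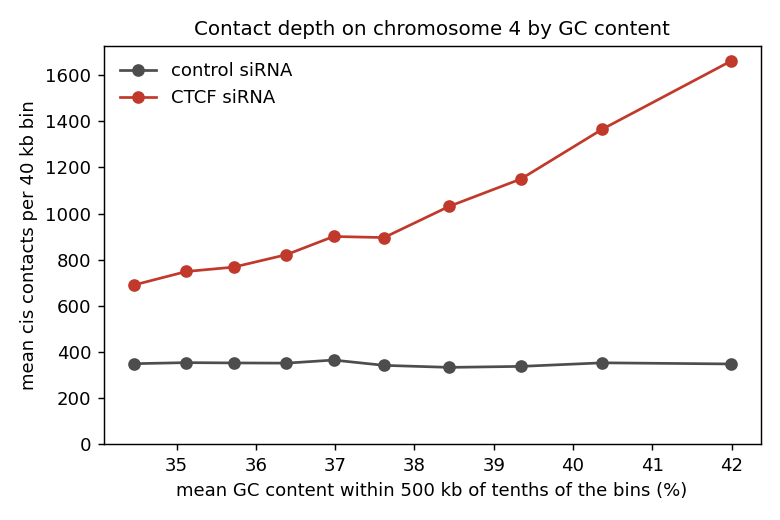
Mean number of contacts within chromosome 4 per 40 kb bin (vertical axis) in 10 groups of the usable bins ordered by the GC content within 500 kb (horizontal axis, %), for control siRNA (grey) and CTCF siRNA (red). The control line stays near 350 contacts per bin, whereas the CTCF siRNA line climbs from 690 to 1660.

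TADs on chromosome 4 were fewer and longer in the CTCF siRNA map. The members held 163 control TADs with a median length of 800 kb (95% interval of the median 680 to 920 kb) and 105 CTCF siRNA TADs with a median of 1040 kb (840 to 1600 kb). This is a fall of 35.6% in number. Over the whole chromosome the fall was 35.3%, which ranked 1 among chromosomes 1 to 22 and X, while the number on the other autosomes together fell by 15.2%. The relative depth of the maps differed between chromosomes, as described below for lost boundaries, and its part in this rank was not tested. Chromosome 13, the poorest in genes, went from 70 to 52 TADs, and chromosome 18, which is next, went from 63 to 50. Chromosome 5, of similar size, went from 184 to 153. TADs longer than 2 Mb made up 10.4% of control TADs on chromosome 4 (17 TADs), where 6.35% of all control TADs in the series were that long. They made up 27.6% of CTCF siRNA TADs on chromosome 4 (29 TADs), where the value for the series was 11.3%. TADs covered 167.9 Mb of the members in control and 155.2 Mb in CTCF siRNA, so stretches outside any TAD also grew. In the tip, 12 control TADs and 11 CTCF siRNA TADs were listed. In the rest of the members, the number went from 151 to 94.

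The change was spread over most windows of the chromosome. In windows of 5 Mb, 31 of 35 windows had fewer TADs in CTCF siRNA than in control, where 58.4% of the windows of the series did, 3 had the same number and 1 had more. The window with more was the first, at 0 to 5 Mb, with 7 control and 8 CTCF siRNA TADs. The window at 70 to 75 Mb, which holds the casein and other secretory protein genes, went from 7 to 2 TADs. The window at 150 to 155 Mb went from 6 to 2 TADs. In the gene desert at 30 to 35 Mb, where a single gene starts, 2 TADs became 1.

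**Figure D2:**
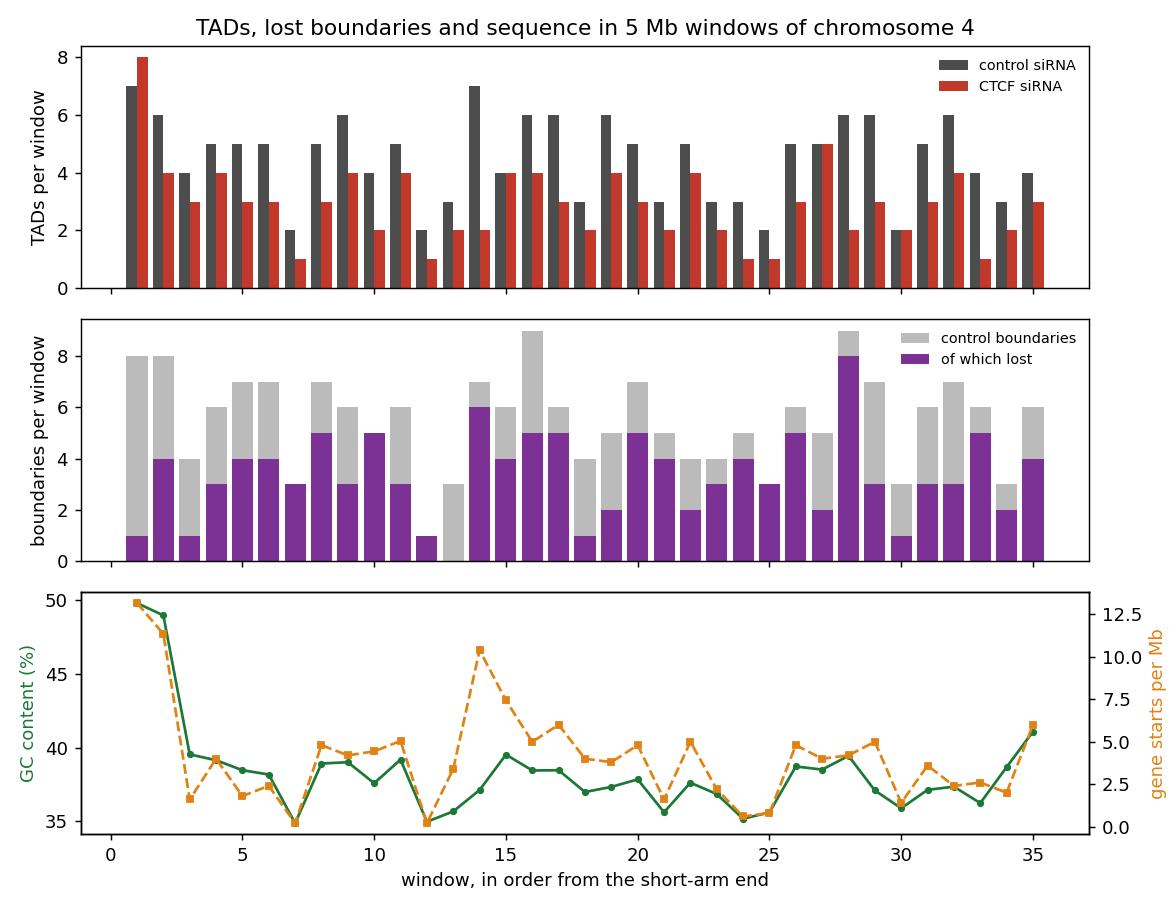
Windows of 5 Mb of chromosome 4 in order from the short-arm end (horizontal axis), with the number of TADs in each map (top), the number of control boundaries and how many of these were lost (middle), and GC content and gene starts per Mb (bottom). The first 2 windows stand out in GC content and gene starts, and 31 of 35 windows hold fewer TADs in CTCF siRNA.

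Merging was more frequent than splitting. Of the 163 control TADs, 65 (39.9%, Wilson 95% interval 32.7 to 47.5%) were merged with a neighbour, that is, they lay together with at least 1 other control TAD in a single CTCF siRNA TAD, where 31.3% of control TADs of the series were. A TAD could extend up to 40 kb beyond either end of the one that held it, here and for splitting below. Another 24 (14.7%, 10.1 to 21.0%) kept both edges, that is, a single CTCF siRNA TAD had both of its edges within 40 kb of theirs, where 20.3% did in the series. Splitting, with at least 2 CTCF siRNA TADs inside a single control TAD, accounted for 4 of 105 CTCF siRNA TADs (3.81%, 1.49 to 9.39%), where the value for the series was 13.4%. In the tip, 6 of 12 control TADs kept both edges, and in the rest 18 of 151 did.

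The 65 merged TADs fell into 28 CTCF siRNA TADs of 1.08 to 6.92 Mb, of which 20 held 2 control TADs each. The one that held most, 4 control TADs, lay at chr4:152020001-155460000. It spans 19 protein-coding genes, among them FBXW7, the substrate-binding subunit of a ubiquitin ligase, TLR2, a receptor for bacterial lipoproteins, and SFRP2, a secreted modulator of Wnt signalling. Contacts between its 4 control TADs numbered 1216 in the control map, a log2 ratio of -0.77 to the number expected for their distances on the chromosome, and 9269 in the CTCF siRNA map, a log2 ratio of 0.53. The difference was 1.29 ± 0.04 (log2, counting SE). This TAD has a GC content of 40.7%, and its bins had 4.21 times as many contacts in the CTCF siRNA map as in control, where the usable bins of the chromosome together had 2.88 times as many. After thinning by GC content the difference was 0.64 ± 0.05. Over the 26 merged TADs with contacts, the median log2 ratio of observed to expected contacts between the former TADs went from -0.26 in control to 0.09 with CTCF siRNA. The change had a median of 0.35 (95% interval 0.03 to 0.61), was positive in 19 of 26, and ranged from -0.50 to 1.44. In the 13 merged TADs of lower GC content the median was 0.05 (-0.29 to 0.36), and in the 13 of higher GC content 0.61 (0.13 to 1.27). After thinning by GC content these medians were 0.44 (0.09 to 0.65) and 0.36 (0.16 to 0.64), with 0.38 (0.25 to 0.56) over all 26, of which 22 rose. The lowest value before thinning was at chr4:44660001-47900000, which holds the genes of the GABA-A receptor subunits GABRG1, GABRA2, GABRA4 and GABRB1. There 2062 control contacts gave a log2 ratio of 0.51 and 4582 CTCF siRNA contacts one of 0.02, and the change was -0.04 ± 0.04 after thinning by GC content. The lowest value after thinning was -0.12 ± 0.11, at chr4:20700001-22700000. Since TADs were called on these same maps, these values describe the calls and are no test of them.

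The members held 201 control boundaries, of which 121 (60.2%, Wilson 95% interval 53.3 to 66.7%) had no CTCF siRNA boundary within 40 kb and are called lost. In the whole series 47.4% of control boundaries were lost, and on the chromosomes other than chromosome 4 46.6% were (44.9 to 48.3%). These shares come from the TAD lists whose fall in number was known when the chromosome was chosen. The contrast with other chromosomes therefore describes that choice and is no test of it. With 59.7% over its whole length, chromosome 4 ranked 1 in lost share, followed by the X chromosome with 57.6% and chromosome 13 with 57.0%. The chromosome with the lowest share was the gene-rich chromosome 19, with 28.6%. Chromosome 5 lost 42.9% and chromosome 18 lost 42.2%. The depth of the CTCF siRNA map relative to control also differed between chromosomes. To match the control number of contacts, a share of 0.35 of its contacts was kept on chromosome 4, the highest of all chromosomes. This share was 0.30 on the X chromosome, 0.28 on chromosomes 13 and 5, and 0.16 on chromosome 19. TADs were not called again at matched depth, so the part of depth in these ranks was not tested. The arms had similar shares, with 61.7% lost on the short arm from 9 Mb (29 of 47) and 62.9% on the long arm (88 of 140). Of 132 CTCF siRNA boundaries on chromosome 4, 53 (40.2%, 32.2 to 48.7%) had no control boundary within 40 kb and are called gained, where 36.9% of those of the series were gained.

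The gene-rich tip kept most of its boundaries. Of its 14 control boundaries 4 were lost (28.6%, Wilson 95% interval 11.7 to 54.6%), against 117 of 187 (62.6%, 55.4 to 69.2%) in the rest, a difference of 34.0 percentage points with an interval of 7.0 to 52.1. With 14 boundaries this interval is wide. The tip, at 49.8% GC, is richer in GC than the most GC-rich of the 10 groups of bins, which had a mean of 42.0%. In that group the CTCF siRNA map was 4.77 times as deep as control. Without listed contacts, depth in the tip could not be matched, and its part in this contrast was not tested. The tip was named for this contrast with earlier results known. Its 10 maintained boundaries were at 20000, next to the zinc-finger gene ZNF595, and at 660000, 980000, 1660000, 2180000, 3060000, 3940000, 5980000, 6660000 and 7060000. The one at 20000 is the start of the first TAD in both lists, at the end of the chromosome, and is no boundary between 2 TADs. Those from 660000 to 7060000 followed each other without a lost one. The bins of 2 of them overlap IDUA, the lysosomal enzyme iduronidase (980000), and HTT, huntingtin (3060000). The 4 lost ones included those at 460000 in ZNF721, another zinc-finger gene, and at 8580000, in a bin that overlaps GPR78 and CPZ, a carboxypeptidase. The last 3 lost ones of the tip fell inside 1 CTCF siRNA TAD, chr4:7060001-9140000. There were 3 gained boundaries in the tip, at 3180000 in HTT, at 3460000 near RGS12, a regulator of G-protein signalling, and at 6180000 in JAKMIP1.

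Lost boundaries stood in longer runs than maintained ones. Of the 121 lost boundaries, 79 (65.3%, Wilson 95% interval 56.5 to 73.2%) stood in 16 runs of at least 3 consecutive lost boundaries, where 45.2% of lost boundaries of the series did. Of the 80 maintained boundaries, 31 (38.8%, 28.8 to 49.7%) stood in 8 runs of at least 3. Runs lengthen with the lost share itself, so the length alone does not set chromosome 4 apart. The 16 runs of lost boundaries spanned 61.5 Mb with 3.50 gene starts per Mb and a GC content of 37.3%. The 8 runs of maintained boundaries spanned 22.5 Mb with 6.04 gene starts per Mb and 41.5% GC, and the tip supplied the longest of them. Without the runs of the tip, the 7 other maintained runs had 3.598 gene starts per Mb and 38.2% GC, against 3.43 per Mb and 37.2% in the 15 other lost runs.

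The longest run of lost boundaries held 10, at chr4:131620001-143020000, with 5 gained boundaries between them. Where edges up to 400 kb apart were joined into 1 boundary, the longest run of the chromosome held 5. Over these 11.4 Mb 22 protein-coding genes start, 1.93 per Mb, and the GC content was 36.4%. It contains PCDH10 and PCDH18, protocadherins that mediate adhesion between cells, SLC7A11, the cystine transporter, UCP1, the uncoupling protein of brown fat, and INPP4B, a phosphoinositide phosphatase. In place of 7 control TADs of 0.48 to 2.12 Mb that touched the run there were 4 CTCF siRNA TADs, the longest of 6.92 Mb. The insulation value, defined below, was higher in CTCF siRNA at 9 of its 10 boundaries, with a median change of 0.49 and a range of -0.22 to 1.26 (log2). The next run, of 7 boundaries at chr4:175540001-183820000, held 11 gene starts, 1.33 per Mb, with 36.8% GC. It includes GPM6A, a neuronal membrane glycoprotein, VEGFC, the lymphatic growth factor, and TENM3, a teneurin. All 7 boundaries had a higher insulation value in CTCF siRNA, with changes of 0.29 to 0.79. There were 3 runs of 6 boundaries. The one of the longest span, at chr4:27620001-36300000, is a gene desert with 3 gene starts in 8.68 Mb and a GC content of 35.0%. Its genes are PCDH7, another protocadherin, ARAP2 and DTHD1. The values at its 6 boundaries changed by 0.07 to 0.79. The others were at chr4:114660001-119180000, with 1.33 gene starts per Mb, 35.1% GC and changes of -0.11 to 0.94, and at chr4:83940001-87380000, with 3.49 gene starts per Mb, 38.2% GC and changes of -0.43 to 1.01. The run of 7 held 2 gained boundaries, and the 3 runs of 6 held 3, 2 and 2 in the order given.

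Runs of lost boundaries were not confined to gene-poor stretches. A run of 5 at chr4:70500001-73140000 had 31 gene starts, 11.7 per Mb, at 37.3% GC. It holds the casein genes and those of salivary and enamel proteins, which are silent in most tissues. Its boundaries had the highest median change in insulation of the runs with contacts, 1.07, with a range of 0.37 to 1.35. It held 2 gained boundaries, of which the one at 71340000 lay 80 kb from the lost boundary at 71420000, whose change was that median. A run of 5 at chr4:74500001-78620000, over a cluster of chemokine genes, had 10.2 gene starts per Mb and held 3 gained boundaries. The longest maintained run, of 9 boundaries at chr4:660001-7060000, had 12.2 gene starts per Mb and 49.7% GC. The next, of 4 at chr4:169820001-171020000 around NEK1, a kinase of the primary cilium, and CLCN3, a chloride/proton exchanger, had 5.83 per Mb. Of 6 maintained runs of 3 boundaries, the one of the longest span, at chr4:65460001-69100000, lay in AT-rich sequence of 35.6% GC, where EPHA5, an ephrin receptor, lies in a TAD of 2.84 Mb with the same edges in both maps.

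Within 500 kb of a lost boundary the GC content had a median of 37.9% (95% interval of the median 37.6 to 39%, n = 121), and within 500 kb of a maintained one 39% (38.2 to 39.9%, n = 80). The median number of gene starts was 4 (4 to 5) at lost and 5 (4 to 6) at maintained boundaries. These intervals overlap. Gene starts per Mb at lost minus maintained boundaries were -1.0 (-2.12 to 0.12) with 500 kb to each side and -2.5 (-3.75 to -1.25) with 200 kb to each side. These are differences between medians of whole counts, and a single gene start weighs more per Mb in the shorter window. The values at these settings are therefore not comparable in size. Without the tip the medians of GC content were 37.8% and 38.6%. On the other autosomes lost boundaries had a median of 40.7% GC (n = 1443) and maintained ones 42.4% (n = 1683), a difference in the same direction. Of the 201 control boundaries on chromosome 4, 14 had no gene start within 500 kb, as had 5.71% of all control boundaries in the series, and 12 of these 14 were lost (85.7%, Wilson 95% interval 60.1 to 96.0%). On the other autosomes 68.8% of such boundaries were lost (61.6 to 75.1%, n = 176).

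Within ranges of GC content the distance between chromosome 4 and the other autosomes varied. Below 36% GC, 69.6% of boundaries on chromosome 4 (16 of 23) and 73.3% on the other autosomes (132 of 180) were lost. From 36 to 38% GC the shares were 70.1% (47 of 67) and 61.0% (242 of 397), and from 38 to 40% they were 47.7% (21 of 44) and 47.7% (254 of 533). At 40% or more they were 55.2% (37 of 67, interval 43.4 to 66.5%) and 40.4% (815 of 2016, 38.3 to 42.6%). This last range has no upper limit, and GC content within it was not matched between chromosome 4 and the other autosomes. The same holds for the share computed next. Had chromosome 4 lost boundaries at the rates of the other autosomes within each of these ranges, 52.6% would have been lost in place of 60.2%. The other autosomes as they are lost 46.2%. By gene starts the values of chromosome 4 were the higher ones. With 1 to 3 gene starts within 500 kb the shares were 65.4% (34 of 52) and 53.7%, with 4 to 9 they were 54.8% (57 of 104) and 44.4%, and with 10 or more they were 58.1% (18 of 31) and 40.04%. The Wilson intervals of both overlapped in each range of gene starts and in each range of GC content below 40%. At the rates of the other autosomes within these ranges of gene starts, 47.8% would have been lost.

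**Figure D3:**
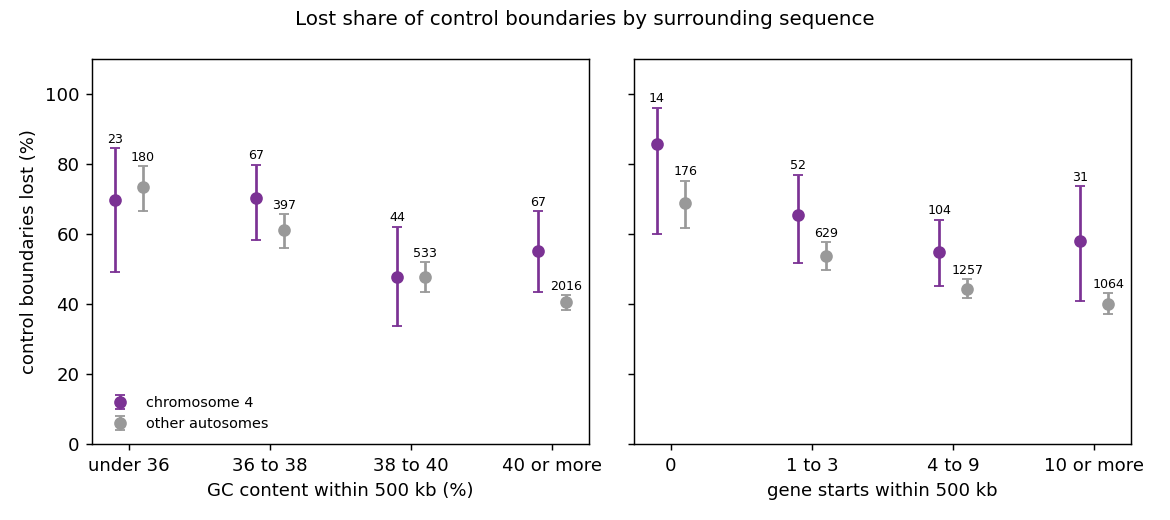
Share of control boundaries that were lost (vertical axis, %, with Wilson 95% intervals) by GC content within 500 kb (left) and by gene starts within 500 kb (right), for chromosome 4 (purple) and the other autosomes (grey), with the number of boundaries above each point. In both groups the share is lower in the most GC-rich range than in the most AT-rich one. Chromosome 4 lies above the other autosomes at 40% GC or more, with 55.2% against 40.4%, a range without upper limit within which GC content was not matched.

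Across windows of 5 Mb with at least 2 control boundaries, the lost share went with lower GC content, with a Pearson's r of -0.31 and a Spearman's rho of -0.22 over 34 windows. Without the first 10 Mb r was -0.10 and rho -0.14 over 32 windows. With windows of 2 Mb r was -0.32 and rho -0.19 over 65 windows. For gene starts per Mb r was -0.20 and rho -0.08, and without the first 10 Mb the sign turned, with r = 0.03 and rho = 0.02. With windows of 10 Mb r was -0.17 and rho 0.05. Windows lie side by side on a chromosome and hold few boundaries each, so these are descriptions of the windows.

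Insulation was measured from the contacts without the TAD lists, but on the same reads. For each bin, contacts between the 400 kb on its left and the 400 kb on its right were divided by the number expected for their distances, then by the same ratio within the flanks, and are given as log2. A low value means few contacts across. At lost boundaries on chromosome 4 the control median was -0.70 and the CTCF siRNA median -0.14, with a median change of 0.62 (95% interval 0.55 to 0.66). The value was higher in CTCF siRNA at 106 of 113 boundaries with a value, 93.8%, where 94.7% of lost boundaries on chromosomes 1 to 22 rose. Maintained boundaries were deeper in control, at -1.17, and stood at -0.69 in CTCF siRNA. Their median change was 0.48 (0.28 to 0.65), and 53 of 64 rose, 82.8%, where 79.8% did on chromosomes 1 to 22. Gained boundaries had a median change of -0.08 (-0.29 to 0.08), and 20 of 48 rose (41.7%, where 35.5% did). In TAD interiors, at least 200 kb from any boundary, the median change over 2294 bins was -0.08 (-0.10 to -0.06). Maintained boundaries thus also became less insulated, by less than lost ones at the median but with intervals that overlap. After thinning by GC content the median changes were 0.58 (0.52 to 0.66) at lost and 0.47 (0.28 to 0.61) at maintained boundaries. Boundaries taken from the control map are low points of that map, so a rise at them was built into their choice to an extent that was not measured.

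**Figure D4:**
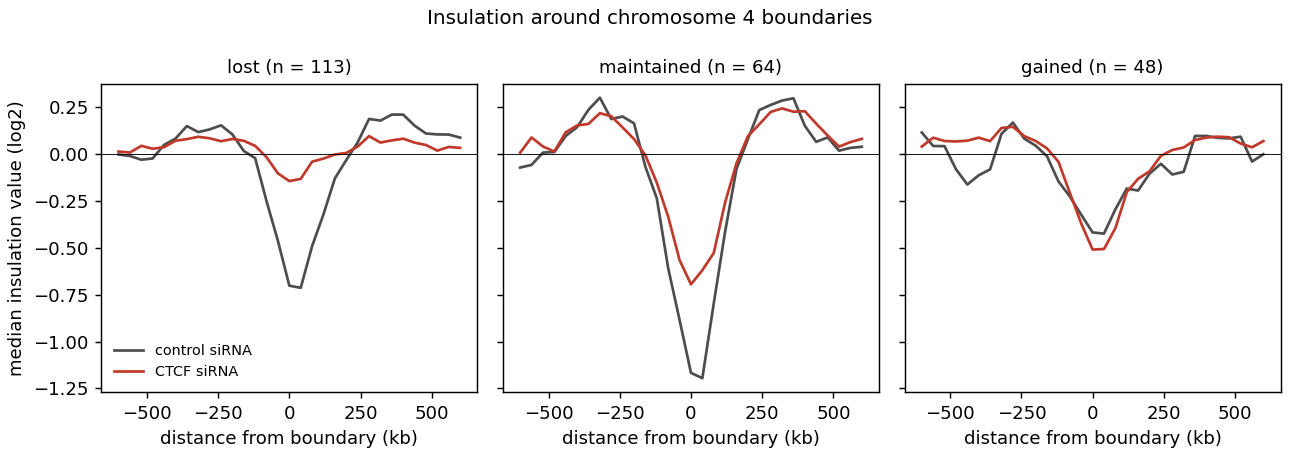
Median insulation value (vertical axis, log2) by distance from the boundary (horizontal axis, kb) at lost, maintained and gained boundaries of chromosome 4, in control siRNA (grey) and CTCF siRNA (red). The dip at lost boundaries shrinks from -0.70 to -0.14, the dip at maintained ones from -1.17 to -0.69, and gained ones show a dip in both maps.

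The change at lost boundaries had overlapping intervals in AT-rich and GC-rich surroundings. With the usable bins split into 3 groups of equal size by GC content, the median change at lost boundaries was 0.60 (0.49 to 0.78, n = 23) in the most AT-rich group, 0.64 (0.38 to 0.83, n = 47) in the middle one and 0.58 (0.50 to 0.67, n = 43) in the most GC-rich. At maintained boundaries the medians were 0.95 (0.47 to 1.74, n = 7), 0.48 (0.41 to 0.69, n = 26) and 0.26 (0.10 to 0.58, n = 31), with intervals that overlap between the first and the last. On the other autosomes lost boundaries changed by 0.59 (0.56 to 0.62) and maintained ones by 0.34 (0.31 to 0.37), within the intervals of chromosome 4.

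The largest rises at lost boundaries were chosen by that change and are given as values, with errors from counting. At chr4:150800001-150840000, a bin that overlaps the start of IQCM, the value went from -1.51 ± 0.15 to -0.12 ± 0.06, with 109 control and 764 CTCF siRNA contacts across. At chr4:160360001-160400000, 78 kb from RAPGEF2, an activator of the small GTPase Rap, it went from -1.51 ± 0.15 to -0.14 ± 0.07. At chr4:72560001-72600000, 7 kb from GC, which encodes the vitamin D-binding protein, the value turned positive, from -1.11 ± 0.10 to 0.24 ± 0.05. The boundary in ANXA10, an annexin, at chr4:169040001-169080000 went from -1.46 ± 0.14 to -0.15 ± 0.06. The fifth, at chr4:139880001-139920000, 16 kb from the circadian gene NOCT, began at -2.09 ± 0.18 and stayed below zero at -0.83 ± 0.06. For comparison, TAD interiors of chromosome 4 had a median level of 0.22 in the control map and 0.15 in the CTCF siRNA map. Of these 5 boundaries, 4 came to lie between -0.15 and 0.24. Only the one near GC ended above the interior median of the CTCF siRNA map, and the others remained below it. The boundaries near IQCM and NOCT had gained boundaries nearby, 80 kb to 1 side of the former and 80 kb to each side of the latter, and would count as maintained if sharing were allowed within 80 kb.

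Among gained boundaries the largest falls were at chr4:54200001-54240000 in SCFD2, from 0.01 ± 0.09 to -0.90 ± 0.05, at chr4:56280001-56320000 over TMEM165 and CLOCK, a core circadian transcription factor, from -0.04 ± 0.09 to -0.90 ± 0.06, and at chr4:123120001-123160000 in BLTP1, from 0.26 ± 0.09 to -0.49 ± 0.07. The one over TMEM165 and CLOCK lay 80 kb from a lost control boundary and would count as shared if sharing were allowed within 80 kb. The maintained boundaries with the lowest value in CTCF siRNA were at chr4:57840001-57880000 over NOA1 and POLR2B, a subunit of RNA polymerase II, with -2.23 ± 0.15 in control and -1.98 ± 0.06 in CTCF siRNA, at chr4:57240001-57280000 over AASDH and PPAT, an enzyme of purine synthesis, with -1.43 ± 0.11 and -1.80 ± 0.06, and at chr4:83760001-83800000 over SEC31A, a coat protein of vesicles leaving the endoplasmic reticulum, with -1.06 ± 0.11 and -1.47 ± 0.05. All 3 lie in sequence of 41.4 to 42.0% GC with 8 to 12 gene starts within 500 kb, above the medians of maintained boundaries.

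CTCF core motifs were found near both lost and maintained boundaries. A match lay within 2 bins on either side of 67 of 121 lost boundaries (55.4%, Wilson 95% interval 46.5 to 63.9%), of 47 of 80 maintained ones (58.8%, 47.8 to 68.9%) and of 27 of 53 gained ones (50.9%, 37.9 to 63.9%), where 40.7% of all member bins had one in the same window. A match is a string in the reference and was not checked for binding of CTCF. Matches near 3 of the named boundaries are shown from the GRCh37 reference, with the core in capitals and 20 bases to each side, each on its own strand, to set those of lost boundaries beside that of a maintained one:
lost, intergenic, chr4:150835827-150835878, plus strand, 16 kb from the centre of the bin at the start of IQCM: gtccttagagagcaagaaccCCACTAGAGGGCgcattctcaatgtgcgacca
lost, intron of ANXA10, chr4:169075184-169075235, minus strand, 15 kb from the centre: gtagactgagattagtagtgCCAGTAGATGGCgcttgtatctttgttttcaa
maintained, intron of PPAT, chr4:57291261-57291312, plus strand, 31 kb from the centre: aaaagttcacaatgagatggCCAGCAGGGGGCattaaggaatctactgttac

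Low points of the insulation value were also called without the TAD lists, after the contacts of the CTCF siRNA map had been drawn down at random to as many as the control map has on chromosome 4. At a prominence of at least 0.3, 267 minima were found in control and 213 in the thinned CTCF siRNA map, a change of -20.2%, against -14.1% on the other chromosomes together. Of the 267 control minima, 131 (49.1%, Wilson 95% interval 43.1 to 55.0%) had no minimum within 40 kb in the thinned CTCF siRNA map, where 49.8% of those of the series had none. On this measure, which does not use the TAD caller, the share of chromosome 4 was close to that of the other chromosomes, 49.9% (48.3 to 51.4%). Between 2 draws of this size from the CTCF siRNA map that share no contact, 30.2% of the minima (24.4 to 36.7%) had no partner, against 26.6% on the other chromosomes. By GC content, 62.3% of control minima in the most AT-rich group (51.2 to 72.3%), 48.4% in the middle one (38.5 to 58.4%) and 39.2% in the most GC-rich one (30.1 to 49.1%) had no partner in CTCF siRNA. The 2 draws of a single map gave 55.0% (42.5 to 66.9%), 24.3% (15.8 to 35.5%) and 17.1% (10.5 to 26.6%) in the same order. This thinning matched the total of the chromosome and not the depth of each group. The median number of contacts per bin was 245, 300 and 433 in the thinned map, against 338, 346 and 326 in control, in the same order. After thinning by GC content it was 331, 334 and 323. The shares of control minima without a partner were then 63.6% (52.5 to 73.5%), 48.4% (38.5 to 58.4%) and 45.4% (35.8 to 55.3%), and those between draws 49.2% (37.5 to 61.1%), 30.3% (20.6 to 42.2%) and 21.95% (14.4 to 32.1%). The intervals overlapped in the AT-rich and middle groups and did not in the GC-rich one. Over all groups 51.7% (45.7 to 57.6%) of control minima had no partner, against 32.9% (26.9 to 39.4%) between draws.

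The distance between contacting sequences changed by about as much as on the other autosomes. Of contacts between 40 kb and 20 Mb apart on chromosome 4, 16.6% in control and 14.1% in CTCF siRNA spanned more than 2 Mb. Both were the highest of the 22 autosomes, where the medians of the 21 others were 14.5% and 11.7%. The difference of -2.54 percentage points lay near the median of the others, -2.44, and within their range of -3.17 to -0.84. Contacts of 520 to 1000 kb took 1.09 times and contacts of 1040 to 2000 kb 1.08 times their control share in CTCF siRNA, and those of 10040 to 20000 kb took 0.78 times theirs. From 200 kb to 2 Mb, contacts fell with distance with an exponent of -1.21 in control and -1.18 in CTCF siRNA. In control the exponent was -0.99 in the most AT-rich group of bins and -1.38 in the most GC-rich, and in CTCF siRNA it was -1.01 and -1.27.

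**Figure D5:**
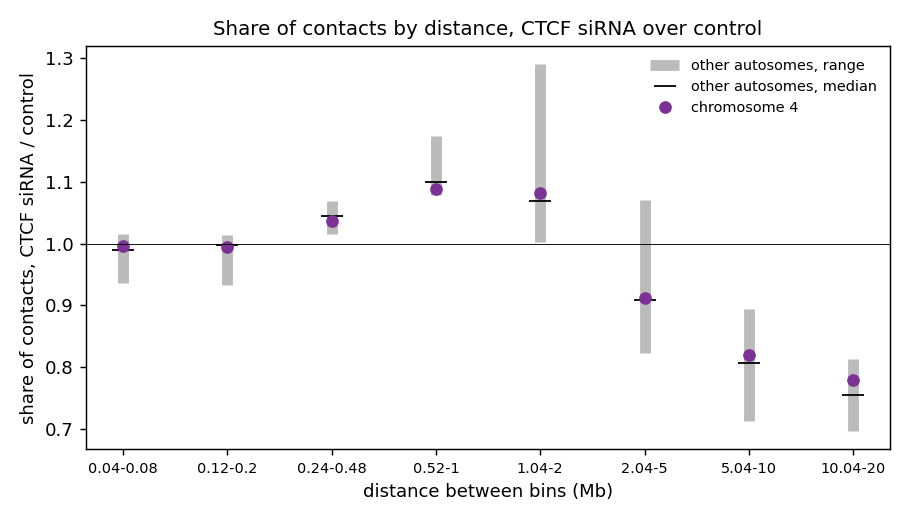
Share of contacts in each range of distance (horizontal axis, Mb) in CTCF siRNA divided by the share in control (vertical axis), for chromosome 4 (purple points) and for the other autosomes (black marks for the median, grey bars for the range). Chromosome 4 lies within the range of the others at every distance, with 1.09 at 0.52 to 1 Mb and 0.78 beyond 10 Mb.

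The compartment pattern was compared arm by arm. On the long arm the eigenvector of contacts in bins of 480 kb correlated between control and CTCF siRNA with r = 0.79 over 267 bins, and with r = 0.69 when the CTCF siRNA map was thinned to the control depth. Between the 2 draws from the CTCF siRNA map described above r was 0.82. Between the conditions, at full depth, the long-arm eigenvector had the same sign in all but 54 bins. For each arm and map the eigenvector that followed GC content best was taken, with its sign set so that it rose with GC content. The r of the long-arm eigenvector with GC content, 0.53 in control and 0.68 in CTCF siRNA, was thus positive by choice. On the short arm the eigenvector that followed GC content best was the second in control and the first in CTCF siRNA, and r between the conditions was 0.09 over 73 bins, of which 38 had opposite signs, or 0.14 with the thinned map, where the draws of a single map gave 0.93. With bins of 1 Mb it was 0.84 over 34 bins, or 0.195 with the thinned map, where the draws of a single map gave 0.04. The pattern of the short arm could not be settled from these maps.

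Genes known from this chromosome were grouped by what they do and followed by the control TAD that holds their start. The 16 genes of the tip shared 9 control TADs. Of these genes 11 lay in 5 TADs that kept both edges, where 14.7% of control TADs on chromosome 4 and 20.3% in the series did, among them the growth factor receptor gene FGFR3 and its neighbours TACC3, LETM1 and WHSC1, a histone methyltransferase, all in a TAD at chr4:1660001-2180000. The homeobox gene MSX1 and the ciliary gene EVC lay in chr4:3940001-5980000, which had the same edges in both maps. RGS12, ADRA2C and WFS1 lay in TADs that were cut into smaller ones or trimmed, and SORCS2 and HTRA3 in TADs that merged. Outside the tip, 34 of 37 genes lay in a control TAD, and these 34 shared 26 TADs. Of these genes EPHA5 alone lay in a TAD found again as a single TAD with both edges. The TAD of HAND2, a heart and limb transcription factor, had both edges within 40 kb of CTCF siRNA edges, but of different TADs. Of the 34 genes, 21 lay in TADs that merged, and these 21 shared 15 TADs, where 39.9% of control TADs on chromosome 4 and 31.3% in the series merged.

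The start of all 4 GABA-A subunit genes lay in TADs that merged, GABRG1 and GABRA2 in one of 1.24 Mb and GABRA4 and GABRB1 in one of 0.80 Mb, into a TAD of 3.24 Mb. ALB and AFP, which encode the main plasma proteins of adult and fetal liver, lay in a TAD of 0.56 Mb, and the chemokine genes IL8, CXCL1, CXCL2 and CXCL5 in a TAD of 0.48 Mb beside it. Both fell into 1 CTCF siRNA TAD of 2.52 Mb. CXCL10 lay in a control TAD of 1.48 Mb that neither kept both edges nor merged. KIT and KDR, receptor kinases for stem cell factor and VEGF, lay in control TADs of 0.64 and 0.36 Mb that merged into one of 1.2 Mb. The edge at 55100000, found in both maps, lay inside PDGFRA. The fibrinogen genes FGB, FGA and FGG lay in no control TAD and in a CTCF siRNA TAD of 0.80 Mb. Of 8 long neuronal and adhesion genes, 5 lay in TADs that merged, among them SLIT2, an axon guidance ligand, and GRIA2, a glutamate receptor subunit. Of 6 developmental factors, 3 did, namely FGF2, SFRP2 and LEF1. Of the 3 protocadherin genes only PCDH10 lay in a TAD that merged, while PCDH7 and PCDH18 lay in TADs that neither merged nor kept both edges. The same held for the 3 casein genes CSN1S1, CSN2 and CSN3, which shared 1 control TAD. Transcription of these genes was not analysed here.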

How the data were processed

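Hi-C was read in LNCaP cells with control siRNA (2 libraries) or CTCF siRNA (4 libraries). Per the labels and the study's methods, the authors aligned reads to hg19 with Bowtie (1.1.0), pooled the libraries of each condition, counted read pairs in 40 kb bins and called TADs from the directionality index. The deposited contact value is not a plain count but a read-pair count multiplied by a factor for each of its 2 bins. The factor depended on the position alone and was the same at that position of every chromosome. On chromosome 4 it differed from 1 only in 847 bins, all on the short arm. It ranged there from 0.15 to 51.7 in control and from 0.09 to 2.49 in CTCF siRNA. Division by it gave whole counts for 100.0% of the 78146 control and 157157 CTCF siRNA values checked on chromosome 4, within a tolerance of 0.010 plus 0.05% of the value, where 2.43 and 2.68% would pass at random. These counts were used. The deposited TAD lists hold start and end positions, as other values. Their starts are counted from 0 and were raised by 1 here.

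Facing TAD edges up to 100 kb apart were joined into 1 boundary. TAD edges at the chromosome ends and at the centromere were counted as boundaries too. The maintained ones thus include 20000, at the chromosome end, and 52620000, in a bin of the centromere gap. Boundaries within 40 kb of each other were called shared. Bins needed 10% of the median depth of the chromosome in both maps. Insulation needed 50% of the bin pairs around a bin. Compartments used 480 kb, the nearest whole number of bins to the planned 500 kb. Genes came from GENCODE (44, lifted to GRCh37), in which WHSC1 is NSD2 and IL8 is CXCL8. Named boundaries had at least 50 contacts expected across in control and were those lost with the 5 largest rises, gained with the 3 largest falls and maintained with the 3 lowest CTCF siRNA values, beside all boundaries of the tip and the 3 longest runs of each kind. The runs at the casein and chemokine genes were picked after their values were seen. Members, gene lists and comparisons were chosen with earlier results of these data known. Python (3.11.15) with NumPy and SciPy was used, and the scripts were tested on simulated data. With 1 map per condition no test between conditions was possible. Some items near the named boundaries are not reported here.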

Additional observations from a re-analysis of the deposited data

Results flagged for a closer look

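The contacts of chromosome 4 with other chromosomes enter no comparison above. Of the contacts of a bin, the share that stayed within the chromosome was 47.7% in control and 58.9% in CTCF siRNA for the most GC-rich group of bins, and 48.8% and 45.6% for the most AT-rich group. The difference between the groups was not tested.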

How the results depend on the processing

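Of 71 values under alternative settings, over 19 results, 57 stayed within the interval of the value given above or, where it had no interval, within 1.5 times of it. Another 14 moved and 0 changed direction. The correlation of the lost share with gene starts over windows, whose sign turned as given above, is not among these 19 results. With boundaries shared only at 0 kb, 68.2% of control boundaries were lost and 51.5% of CTCF siRNA boundaries gained. Sharing within 80 kb left 30.3% gained. Joining edges up to 400 kb apart gave 49.4% lost, 29.8% gained and a longest run of 5 lost boundaries in place of 10. The lost share of chromosome 4 minus that of other chromosomes, compared under settings added after seeing the data, was 13.6 percentage points and remained between 8.0 and 12.9 under these 3 settings. In windows of 200 kb to each side, where a single gene start weighs more per Mb, gene starts per Mb at lost minus maintained boundaries were -2.50 in place of -1.0. The median insulation change at lost boundaries was 0.48 with flanks of 800 kb. In TAD interiors it was -0.044 with flanks of 200 kb, -0.11 with balanced counts and -0.10 with the values as deposited. The change in the share of contacts beyond 2 Mb was -2.18 points with contacts inside a bin kept and -1.89 with balanced counts. The short-arm eigenvector gave r = 0.84 with bins of 1 Mb, or 0.195 with the thinned map. Leaving out the first 10 Mb, also added after seeing the data, brought r of the lost share with GC content to -0.10. For the p arm and the windows the cause was not tested. No paired analysis was possible because each map already pools all libraries of its condition, and for the same reason no library could be left out. At the tip no contacts could be used.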
